A study of Mus musculus with 6 samples.

Results

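Integrins are the receptors by which cells hold on to the extracellular matrix. Each receptor is a pair of an alpha and a beta subunit, both of which cross the membrane, and the alpha subunit largely sets which matrix protein is bound. Inside the cell, talin and kindlin bind the tail of the beta subunit, vinculin ties talin to actin, and integrin-linked kinase, PINCH and parvin form a further link. In the aortic wall these adhesions connect smooth muscle cells to the elastic lamellae and adventitial cells to the collagen around them.

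The transcripts described here are 35 genes, of 24421 rows in the expression matrix. They were taken by name, and no measured value enters the rule, although earlier results of these data were known when they were chosen. They comprise 17 alpha subunits, 8 beta subunits and 10 adaptor and signalling proteins of the focal adhesion core, and all 35 were found. A level of 1 TPM was reached in 3 or more libraries by 20 of them, which were tested for a difference between lineages, and the other 15 are given by value. Above 0 in all 6 libraries were 18 members, against 26.1% of all rows, and at 0 in all 6 were 3 members, against 41.9% of all rows. TPM is a transcript level corrected for transcript length and scaled to the same total in every library, so that levels of different genes can be set side by side.

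Living GFP+ cells were sorted from digests of the aortic root with the ascending aorta, taken when the mice were 8 weeks old. All mice carried the conditional CAG-Sun1/sfGFP tracer on the 129S6/SvEv background, and every library is labelled WT (wild type). In 3 libraries the tracer was switched on by Mef2cSHF, which marks derivatives of the secondary heart field (SHF), and in 3 by Wnt1-Cre2, which marks derivatives of the cardiac neural crest (CNC). Both Cre alleles mark a lineage and its descendants of every cell type, not smooth muscle alone. The comparison asks whether cells of the 2 origins that share this stretch of aorta differ in their adhesion transcripts.

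Several facts about all 6 libraries bear on what follows. The cDNA was amplified, and from 9255 to 11858 genes were above 0 TPM per library. A value of 0 is therefore given as listed at 0, not as absence. The number of reads behind a TPM value cannot be recovered, and the depth is unknown. The summed level of 10 fibroblast genes ran from 28807 to 31789 TPM in SHF libraries and from 39896 to 53834 TPM in CNC libraries, without overlap, while 12 smooth muscle genes summed to between 1694 and 3295 TPM and between 1365 and 2192 TPM. Of the fibroblast genes, *Col1a1*, *Col1a2*, *Col3a1*, *Pi16* and *Clec3b* were higher in every CNC library, and *Pdgfra*, *Dcn*, *Lum*, *Dpep1* and *Dpt* overlapped. The 10 endothelial genes summed to between 302 and 858 TPM in SHF and between 241 and 336 TPM in CNC libraries. *Cdh5*, *Tie1*, *Cldn5*, *Emcn* and *Vwf* of that list were at 0 in all 3 CNC libraries, whereas *Eng*, which other stromal cells also express, was at 227 TPM on average in CNC and 203 TPM in SHF libraries and made up most of each CNC sum. The rest of the list was not at 0 throughout CNC. *Pecam1* was at 9.72, 37.86 and 19.81 TPM and *Tek* at 36.71, 23.1 and 1.11 TPM in CNC replicates 1, 2 and 3. *Kdr* was at 14.38 TPM in CNC replicate 1 only, and *Egfl7* at 1.98 TPM in CNC replicate 3 only. *Xist* was above 0 only in SHF replicates 2 and 3, and the Y-linked *Ddx3y* and *Eif2s3y* only in SHF replicate 1 and the 3 CNC libraries. Lineage and sex-linked transcripts are therefore partly tied together. In these bulk libraries, fewer cells of a type and less RNA per cell cannot be told apart.

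No member differed between lineages past the threshold. In the limma fit on log2(TPM + 1), 0 of the 20 tested members had an adjusted p under 0.05, 0 had an unadjusted p under 0.05, and the smallest adjusted p among them was 0.874. Over all 10185 genes tested the same fit called 0 genes, 0% of them, and 597 genes, 5.86%, had an unadjusted p under 0.05, of which 2.69% of all tested were higher in SHF and 3.17% higher in CNC libraries. The members' differences had a median of 0.20 on the log2 scale, SHF minus CNC, against 0.02 for all genes tested, with 12 above 0 and 8 below. In 3 of the 20 members, *Tln1*, *Ilk* and *Zyx*, every library of one lineage lay above every library of the other, and among all genes tested this held for 11.8%. The coefficient of variation over the 6 libraries had a median of 38.3% for the 20 tested members and 73.1% for all genes tested. Spread went with level: the median was 34.3% for the 1522 tested genes whose mean was 100 TPM or more, and 18.7% for the 4 members among them.

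**Figure D1:**
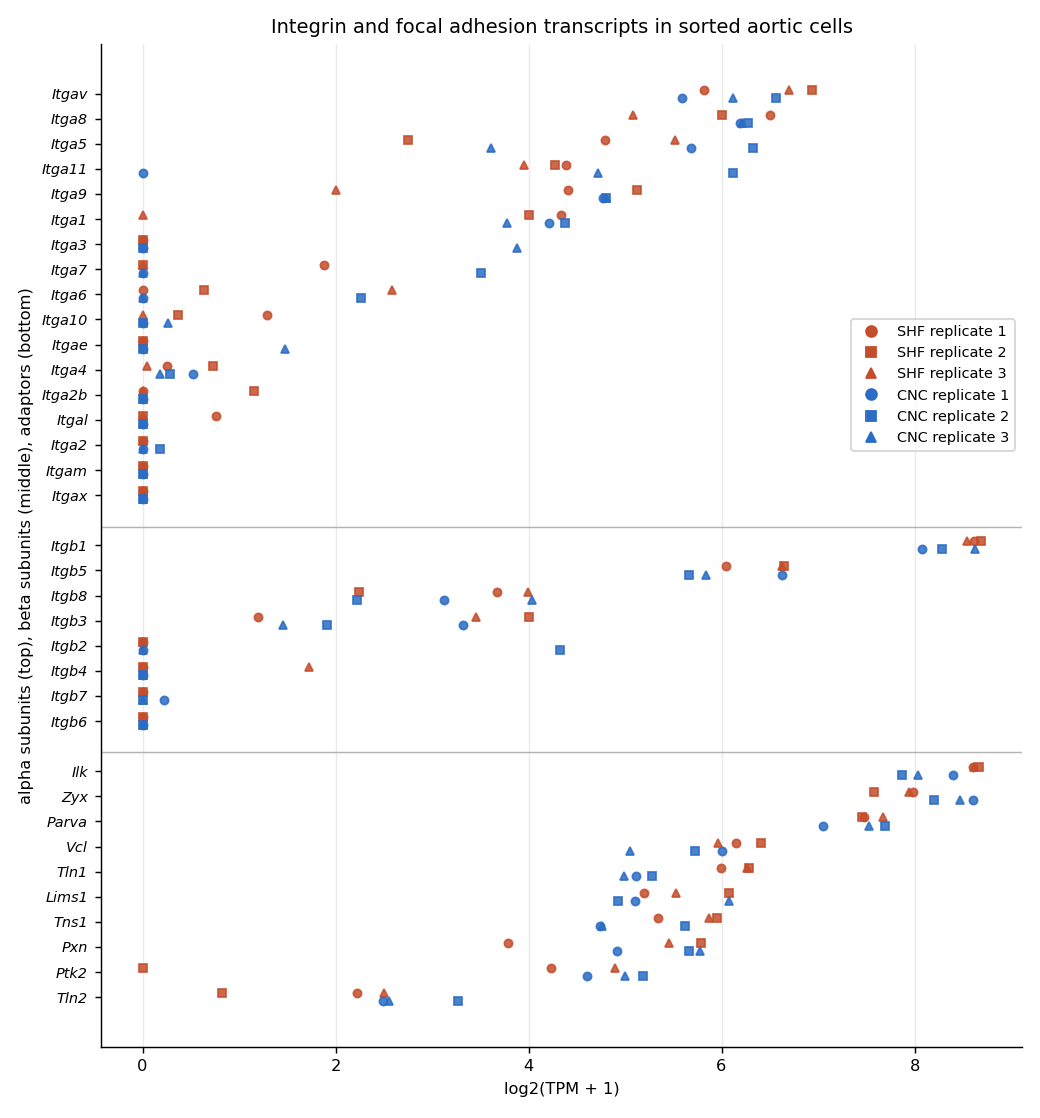
Level of each of the 35 genes in each library, as log2(TPM + 1) on the horizontal axis, ordered within each role by mean TPM; red symbols are SHF and blue symbols CNC libraries, and circles, squares and triangles are replicates 1, 2 and 3. *Itgb1* has the highest levels of any integrin gene in all 6 libraries, and 3 genes, *Itgam*, *Itgax* and *Itgb6*, are at 0 in all 6.

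Short stretches of promoter sequence are shown for 5 members, to set the letters beside the levels. They were chosen after the matches and levels were seen, and other members also hold matches. RefSeq windows of 300 bases on GRCm38.p6, from 250 before to 50 after the start, were at hand for 24 of the 35 genes, 29 windows in all. They were searched on both strands for the CArG box bound by serum response factor, for TGANTCA (bound by AP-1), for the GC box GGGCGG, for GGAATG (bound by TEAD factors), for the CCAAT box and for the TATA box letters TATAAA. The letters CGGAAGT (bound by ETS factors) were added after the windows were read. Of the 29 windows, 2 held a CArG box, 4 TGANTCA, 14 the GC box, 3 the TEAD letters, 6 the CCAAT box, 1 the TATA box and 2 CGGAAGT. Over all windows the GC box was found in 35.7%, the TEAD letters in 14.7%, the CCAAT box in 37.4% and the TATA box in 13.6%. The lines below give 30 bases each, 5′ to 3′ on the strand of the gene, with the match in capitals.
Vcl: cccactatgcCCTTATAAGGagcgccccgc
Itgb6: cacctgacttCCTTATAAGGtgaatgagga
Tln1: ttccaacacaaCGGAAGTggtgcacatagc
Itgav: gccagcgcgcaCGGAAGTgcgcccggcctt
Zyx: agtgcggacagTGAGTCAgttctccagcac

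The *Vcl* stretch lies at chr14:20929161-20929190 on the plus strand and that of *Itgb6* at chr2:60673724-60673753 on the minus strand. Both hold the same CArG letters, which 1.63% of all 32851 windows hold in some form, and they start 227 and 50 bases before the RefSeq start of their window. That start of *Itgb6* lies inside the GENCODE gene, which runs from 60598292 to 60722643, since other transcripts begin farther upstream. *Vcl* was at 32.21 to 84.11 TPM and *Itgb6* at 0 in every library. The *Tln1* stretch, chr4:43562616-43562645 on the minus strand, precedes the RefSeq start but lies inside the first exons that GENCODE gives to *Tln1* and to *Creb3*. Its CGGAAGT letters, 51 bases before the start, are also found 55 bases before that of *Itgav*, at chr2:83724331-83724360, and in 6.42% of all windows. The *Tln1* window holds these letters again at bases 5 to 11 downstream of the start. The AP-1 letters of *Zyx*, at chr6:42349696-42349725 on the plus strand, are held by 7.81% of all windows and lie inside the GENCODE gene, downstream of its start. *Itgax*, at 0 in all 6 libraries, holds the same AP-1 letters upstream of its RefSeq start, and *Itga9* and *Itga3* hold AP-1 letters downstream of theirs. A match describes the letters and does not show binding.

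Beta subunits. *Itgb1* encodes beta1, the shared partner of most alpha subunits on matrix-bound cells. It lies on chromosome 8 of GRCm38 from 128685654 to 128733200 on the plus strand. In replicates 1, 2 and 3 its level was 390.21, 410.18 and 371.67 TPM for SHF and 269.53, 309.64 and 393.88 TPM for CNC, and values of other genes are given in the same order. It ranked 431 among all rows by mean TPM and was the most abundant of the 35 genes. The lineages overlapped, since CNC replicate 3 was above SHF replicates 1 and 3, and the difference was 0.28 ± 0.29 on the log2 scale (SE, limma, adjusted p = 0.904). It was 0.16 without CNC replicate 1 and 0.43 without CNC replicate 3.

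*Itgb5*, which pairs with alpha v to bind vitronectin, was the second beta subunit by level. It lies on chromosome 16 from 33829665 to 33949338. Its values were 65.23, 99.3 and 97.85 TPM in the SHF replicates and 97.95, 49.82 and 56.14 TPM in the CNC replicates. Here CNC replicate 1 sat with the higher SHF libraries, and the difference was 0.40 ± 0.49 (SE, limma, adjusted p = 0.913). It was 0.21 without CNC replicate 2 and 0.69 without CNC replicate 1.

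*Itgb8* and *Itgb3* stood far lower. *Itgb8*, whose product pairs with alpha v and holds latent TGF-β, was at 11.74, 3.72 and 14.97 TPM in SHF and 7.69, 3.66 and 15.4 TPM in CNC replicates, so that each lineage had 1 library under 4 TPM. *Itgb3*, the vitronectin and fibrinogen receptor subunit of platelets that vascular cells also make, was at 1.29, 15.05 and 9.97 TPM in SHF and 8.98, 2.77 and 1.75 TPM in CNC replicates. Both genes varied within each lineage by more than the lineages differed.

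Among the remaining beta subunits, *Itgb4*, the hemidesmosome subunit of epithelia, was above 0 only in SHF replicate 3, at 2.3 TPM, and *Itgb7* of lymphocytes only in CNC replicate 1, at 0.17 TPM. *Itgb6*, an epithelial partner of alpha v, was at 0 in all 6 libraries. SHF replicate 3 also held the highest sum of the 5 mesothelial genes, 88.3 TPM against at most 26.4 TPM in any other library, and the part of such cells in the *Itgb4* value was not tested.

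*Itgb2*, the beta subunit of leukocytes, was at 19.07 TPM in CNC replicate 2 and at 0 in the other 5 libraries. In the same library 10 leukocyte genes summed to 318 TPM, against at most 56.9 TPM elsewhere, with *C1qb* at 141.06 TPM and *Lyz2* at 58.85 TPM. The pan-leukocyte gene *Ptprc* was at 0 in all 6 libraries. None of its alpha partners *Itgal*, *Itgam* and *Itgax* was above 0 in this library. The part of leukocytes in the *Itgb2* value was not tested.

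Alpha subunits. By their mean over the 6 libraries, the most abundant were 2 receptors for the RGD sequence of fibronectin, vitronectin and related proteins. *Itgav* (chromosome 2, 83724397 to 83806916) showed levels of 55.22, 121.73 and 103.02 TPM in SHF and at 47.16, 93.38 and 68.38 TPM in CNC replicates. *Itga8* (chromosome 2, 12106632 to 12301922) is a subunit typical of smooth muscle and other contractile stromal cells, with levels of 89.88, 63.34 and 32.88 TPM in SHF and at 72.23, 76.34 and 73.33 TPM in CNC replicates. Their order is not fixed, as *Itga8* was above *Itgav* in 3 of the 6 libraries, and *Itga5* was above *Itga8* in SHF replicate 3 and CNC replicate 2.

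The 3 CNC libraries agreed closely on *Itga8*, with 74 ± 2.13 TPM (SD, n = 3), while the SHF libraries spread over 62 ± 28.5 TPM (SD, n = 3). A like picture held for *Itga9*, a receptor for tenascin C and osteopontin. It was at 20.28, 33.96 and 3.02 TPM in SHF and at 26.39, 26.95 and 26.81 TPM in CNC replicates. In both genes SHF replicate 3 was the lowest library, and without it the log2 difference went from -0.36 to 0.03 for *Itga8* and from -0.94 to -0.02 for *Itga9*. The difference of spread was not tested.

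*Itga5*, the classical fibronectin receptor subunit, was at 26.8, 5.74 and 44.9 TPM in SHF and 50.36, 79.03 and 11.26 TPM in CNC replicates. The values within a lineage were up to several-fold apart, and the difference of -0.85 ± 1.00 (SE, limma, adjusted p = 0.907) was smaller than its error. It was -0.05 without SHF replicate 2 and -1.65 without CNC replicate 3. *Fn1*, the gene of its ligand fibronectin, was at 335 TPM on average over the 6 libraries.

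Collagen receptors were represented by *Itga11* and *Itga1*. *Itga11*, the fibrillar collagen receptor of fibroblasts, had 19.9, 18.28 and 14.48 TPM in SHF libraries and 0, 68.63 and 25.3 TPM in CNC replicates. It thus held both the highest and the lowest value in CNC libraries, and the fitted difference was 0.59 ± 1.47 (SE, limma, adjusted p = 0.96). Without CNC replicate 1, where it was listed at 0, the difference became -1.22. *Itga1*, which prefers basement membrane collagen and is typical of smooth muscle, was at 19.14, 15.01 and 0 TPM in SHF and at 17.57, 19.83 and 12.73 TPM in CNC replicates. Outside SHF replicate 3, where it was listed at 0, it varied little, and without that library the difference of -1.35 became 0.04. *Itga10* of cartilage reached at most 1.45 TPM and *Itga2* of platelets and epithelia at most 0.13 TPM.

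Laminin receptors were scarce and patchy. *Itga7*, the laminin receptor of skeletal and smooth muscle, was above 0 in SHF replicate 1 at 2.67 TPM and CNC replicate 2 at 10.34 TPM only. *Itga6* was at 5.01 TPM in SHF replicate 3, 3.81 TPM in CNC replicate 2 and 0.56 TPM in SHF replicate 2, and *Itga3* at 13.76 TPM in CNC replicate 3 alone. None of these 3 reached 1 TPM in 3 libraries, and none was tested.

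The other alpha subunits lay near the floor of the matrix. *Itga4*, a receptor for VCAM1 and fibronectin, was above 0 in all 6 libraries but never over 0.66 TPM. *Itga2b* of platelets was above 0 only in SHF replicate 2, at 1.22 TPM, a library in which the 6 platelet genes summed to 0 TPM. *Itgal* was above 0 only in SHF replicate 1, at 0.7 TPM, *Itgae* only in CNC replicate 3, at 1.78 TPM, and *Itgam* and *Itgax* in none.

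The mix of alpha subunits was compared as shares within each library. RGD receptors (*Itgav*, *Itga8*, *Itga5* and *Itga2b*) made up the largest share of the summed alpha subunit TPM in every library. That share was 72.8%, 73.6% and 88.9% in the SHF libraries, and it was 79.3%, 65.7% and 65.5% in the CNC libraries. The means were 78.4% ± 9.08 (SD, n = 3) and 70.1% ± 7.9 (SD, n = 3), a difference of 8.3 percentage points (exact two-sided permutation test, p = 0.3). It was 3.06 without SHF replicate 3 and 12.9 without CNC replicate 1. Collagen receptors came to 12.4% ± 5.03 in SHF and 16% ± 7.6 in CNC libraries (SD, n = 3, exact permutation p = 0.5), and *Itga4* with *Itga9* to 7.81% ± 5.93 and 10.4% ± 2.85 (SD, n = 3, exact permutation p = 0.7). Laminin receptors reached at most 5.89% and leukocyte alpha subunits at most 0.762% in any library. In all, 10 shares and ratios were tested in this way, and after Benjamini-Hochberg adjustment every p was 1, while 3 libraries against 3 cannot give an exact two-sided p below 0.1.

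**Figure D2:**
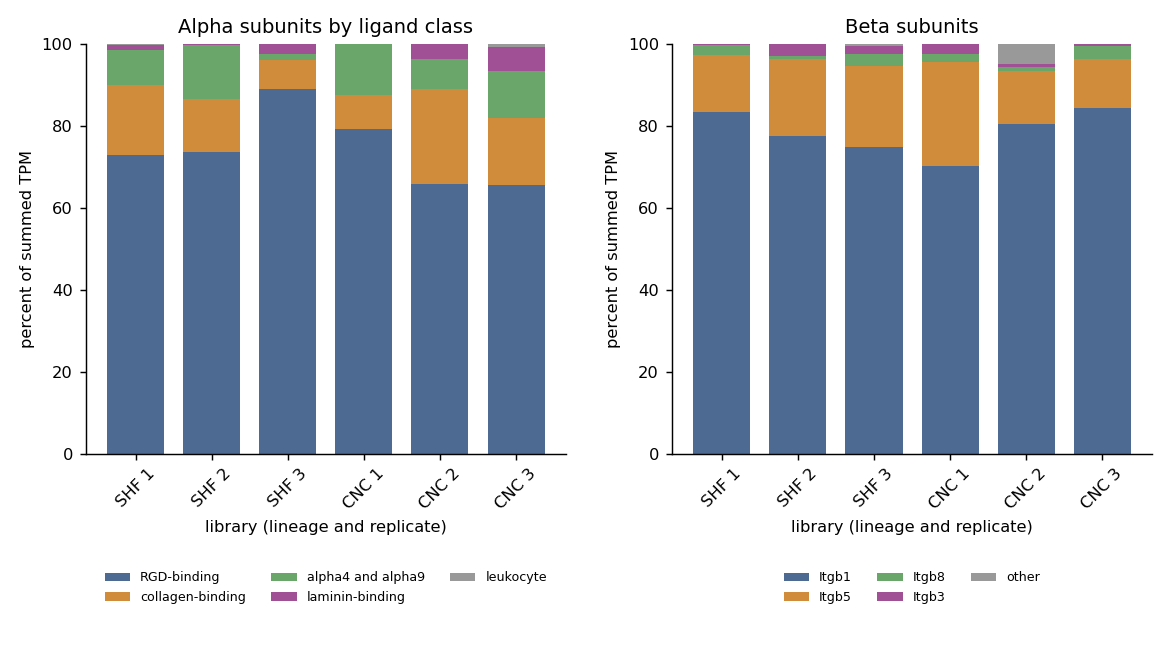
Share of the summed TPM of the alpha subunits by ligand class (left) and of the beta subunits (right), in percent, for each library. RGD receptors hold between 65.5% and 88.9% of alpha subunit TPM and *Itgb1* between 70.1% and 84.3% of beta subunit TPM, with the gray part of CNC replicate 2 on the right being *Itgb2*.

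*Itgb1* held 83.3%, 77.6% and 74.8% of the beta subunit TPM in SHF and 70.1%, 80.4% and 84.3% in CNC replicates (exact permutation p = 1), and *Itgb5* from 12% to 25.5% over all libraries. The alpha subunits that can pair with beta1 were also summed and set against *Itgb1*. Their sum was 0.604, 0.633 and 0.547 times *Itgb1* in SHF replicates and 0.795, 1.22 and 0.589 times in CNC replicates. In 5 of the 6 libraries *Itgb1* transcript thus exceeded the sum of its partners. The difference between lineages was -0.48 on the log2 scale (exact permutation p = 0.3), and the lineages overlapped at CNC replicate 3. It was -0.20 without CNC replicate 2 and -0.83 without *Itgav* among the partners.

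Adaptors. All 10 adaptor genes were tested, and 9 of them were above 0 in every library. *Tln1* encodes talin 1, which binds the beta subunit tail and switches the receptor to its active state. It had 62.69, 76.94 and 75.9 TPM in SHF libraries and 33.5, 37.94 and 30.71 TPM in CNC replicates. Every SHF library was well above every CNC library, and the means of 71.8 ± 7.94 and 34.1 ± 3.65 TPM (SD, n = 3 each) stood in a ratio of 2.11. On the log2 scale the difference was 1.05 ± 0.53 (SE, limma, unadjusted p = 0.074 and adjusted p = 0.874).

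*Tln1*, whose upstream stretch is shown above, lies on the minus strand of chromosome 4 from 43531519 to 43562691. Its first exon overlaps that of *Creb3*, a transcription factor gene on the opposite strand from 43562332 to 43567060, over 360 exonic bases, 3.67% of those of *Tln1*. The library protocol does not mark the strand, so reads in the shared bases cannot be told apart. *Creb3* was at 91.68, 101.41 and 74.43 TPM in SHF and 49.69, 51.45 and 59.69 TPM in CNC replicates. Its lineages did not overlap either, and the higher level was in the same lineage as for *Tln1*. *Creb3* is no member and was looked at after the values of *Tln1* were seen.

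*Tln2*, the second talin, was much lower, at 3.66, 0.77 and 4.68 TPM in SHF and 4.62, 8.64 and 4.89 TPM in CNC replicates. *Tln1* exceeded it in every library, by 17.1, 99.9 and 16.2 times in SHF and by 7.25, 4.39 and 6.28 times in CNC replicates. The lineages did not overlap in this ratio. On the log2 scale it was 4.92 ± 1.49 in SHF and 2.55 ± 0.37 in CNC libraries (SD, n = 3), a difference of 2.37 with an exact permutation p of 0.1, the smallest that the design allows. Without SHF replicate 2, where *Tln2* was lowest, the difference was 1.51.

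*Ilk*, on chromosome 7 from 105736592 to 105742925, encodes integrin-linked kinase, a pseudokinase that scaffolds the link to parvin and PINCH. It had the highest mean of the adaptors over the 6 libraries, although *Zyx* was above it in all 3 CNC libraries. Its levels were 388.63, 404.31 and 391.74 TPM in SHF and 335.79, 232.86 and 261.16 TPM in CNC replicates. The SHF libraries lay within a narrow band, 395 ± 8.3 TPM (SD, n = 3), above all CNC libraries, which had 277 ± 53.2 TPM (SD, n = 3). The difference was 0.53 ± 0.30 (SE, limma, unadjusted p = 0.102 and adjusted p = 0.874). Most exonic bases of *Ilk*, 76.7%, are shared with *Taf10* on the opposite strand, and 12.9% with *Rrp8*. *Taf10* was at 0 to 21.7 TPM and *Rrp8* at 11.86 to 41.23 TPM, and the split of reads between them rests on the authors' estimation.

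*Zyx*, on chromosome 6 from 42349630 to 42360213, went the other way. Its product zyxin moves to focal adhesions and stress fibers under tension. The levels were 252.27, 190.18 and 245.45 TPM in SHF and 388.88, 293.76 and 353.96 TPM in CNC replicates. Every CNC library was above every SHF library, with means of 346 ± 48.1 and 229 ± 34.1 TPM (SD, n = 3), a ratio of 1.51. The difference of -0.59 ± 0.31 (SE, limma, unadjusted p = 0.0839 and adjusted p = 0.874) did not pass the threshold. It shares 4.38% of its exonic bases with *Epha1*, which was at most at 12.27 TPM.

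Since the lineages do not overlap in these 3 genes, leaving out a library cannot turn their direction. The log2 difference without any 1 library ran from 0.98 to 1.15 for *Tln1*, from 0.41 to 0.68 for *Ilk* and from -0.70 to -0.46 for *Zyx*. With SHF replicate 1, the only SHF library with Y-linked transcripts, set alone against the 3 CNC libraries, the difference was 0.87 for *Tln1*, 0.51 for *Ilk* and -0.44 for *Zyx* on the log2 scale (limma, adjusted p = 1 for each). Here the lone library is assumed to vary like the CNC libraries, and the sign is again fixed by the lack of overlap. The fibroblast sums given above, lower in SHF, also separate the lineages without overlap, although only 5 of the 10 genes do so singly. The endothelial sums were highest in SHF replicates 2 and 3. The sums of 7 cardiomyocyte genes (67.4 to 126 TPM in SHF, 0.73 to 37.9 TPM in CNC) and of 6 Schwann cell genes (1.5 to 16 TPM in SHF, 21.4 to 66.3 TPM in CNC) did not overlap either. Their part in the values of these genes was not tested.

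**Figure D3:**
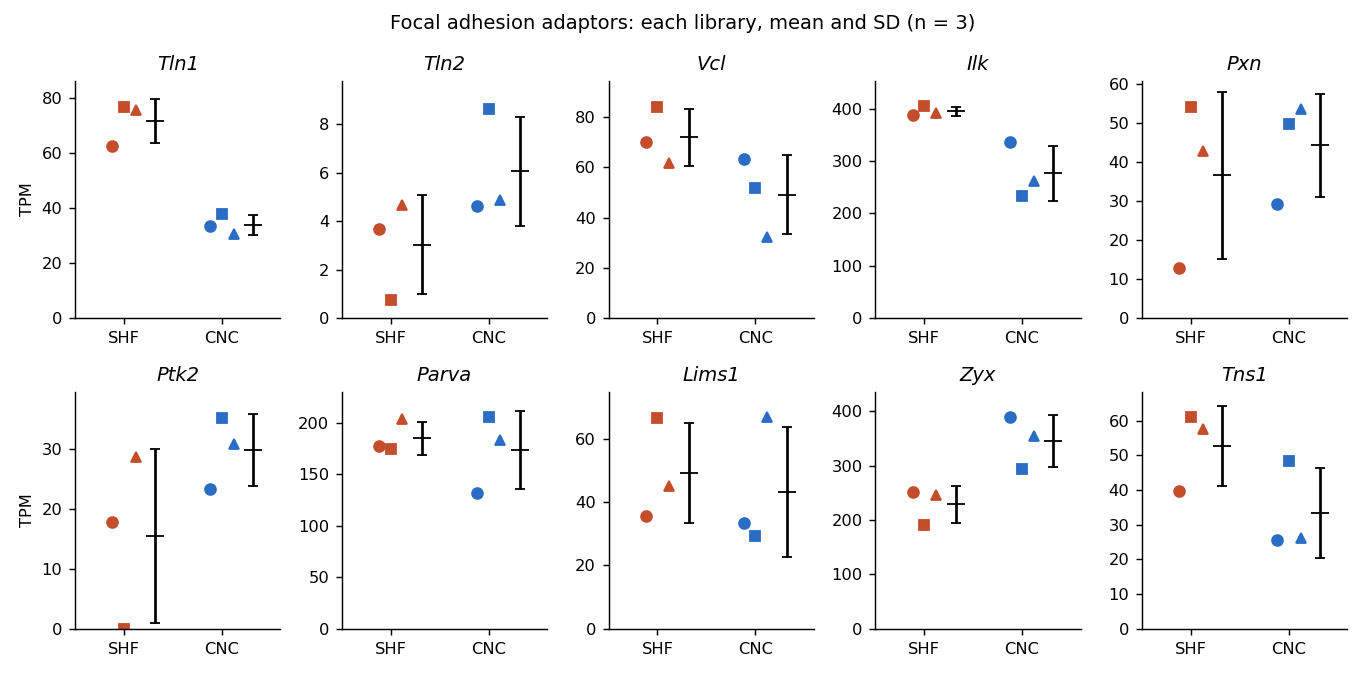
TPM of the 10 adaptor genes in each library (red SHF, blue CNC; circles, squares and triangles are replicates 1, 2 and 3), with the mean as a dash and the SD as bars, n = 3; each vertical axis starts at 0 and has its own range. The lineages are apart without overlap for *Tln1*, *Ilk* and *Zyx* and overlap for the other 7 genes.

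Vinculin and tensin 1 were next in the direction of *Tln1*. *Vcl*, which ties talin to actin, was at 69.97, 84.11 and 61.58 TPM in SHF and 63.2, 51.95 and 32.21 TPM in CNC replicates, and *Tns1*, which binds beta subunit tails at fibrillar adhesions, at 39.64, 60.89 and 57.44 TPM in SHF and 25.68, 48.31 and 26.12 TPM in CNC replicates. In each gene a single CNC library reached into the SHF range, replicate 1 for *Vcl* and replicate 2 for *Tns1*. *Vcl* shares 25.5% of its exonic bases with *Ap3m1* on the opposite strand, which was at 6.68 to 64.36 TPM. The differences were 0.58 ± 0.53 for *Vcl* and 0.68 ± 0.61 for *Tns1* (SE, limma, adjusted p = 0.896 for both), and that of *Vcl* was 0.31 without CNC replicate 3.

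The partners of integrin-linked kinase overlapped between the lineages. *Parva*, alpha-parvin, had the smallest relative spread of all 35 genes, with a coefficient of variation of 14.9%, at 177.2, 174.58 and 203.47 TPM in SHF and 131.68, 205.55 and 183.71 TPM in CNC replicates. *Lims1*, which encodes PINCH1, was at 35.74, 66.42 and 45.19 TPM in SHF and 33.46, 29.36 and 66.67 TPM in CNC replicates. For both, the difference was smaller than its standard error, 0.11 ± 0.35 for *Parva* and 0.23 ± 0.62 for *Lims1*. Whether they differed from *Ilk* in their response to lineage was not tested.

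The remaining adaptors take part in signalling. *Ptk2*, focal adhesion kinase, was at 17.82, 0 and 28.73 TPM in SHF and 23.43, 35.28 and 30.9 TPM in CNC replicates. Its difference, -1.89 ± 1.32 (SE, limma, adjusted p = 0.883), was the largest of the 20 tested members, and it rested on SHF replicate 2, where the gene was listed at 0. Without that library it was -0.37. *Pxn*, the scaffold paxillin, was at 12.85, 54.14 and 42.79 TPM in SHF and 29.29, 49.79 and 53.68 TPM in CNC replicates, with SHF replicate 1 alone below 29 TPM. Without SHF replicate 1 its difference turned from -0.44 to 0.17.

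**Figure D4:**
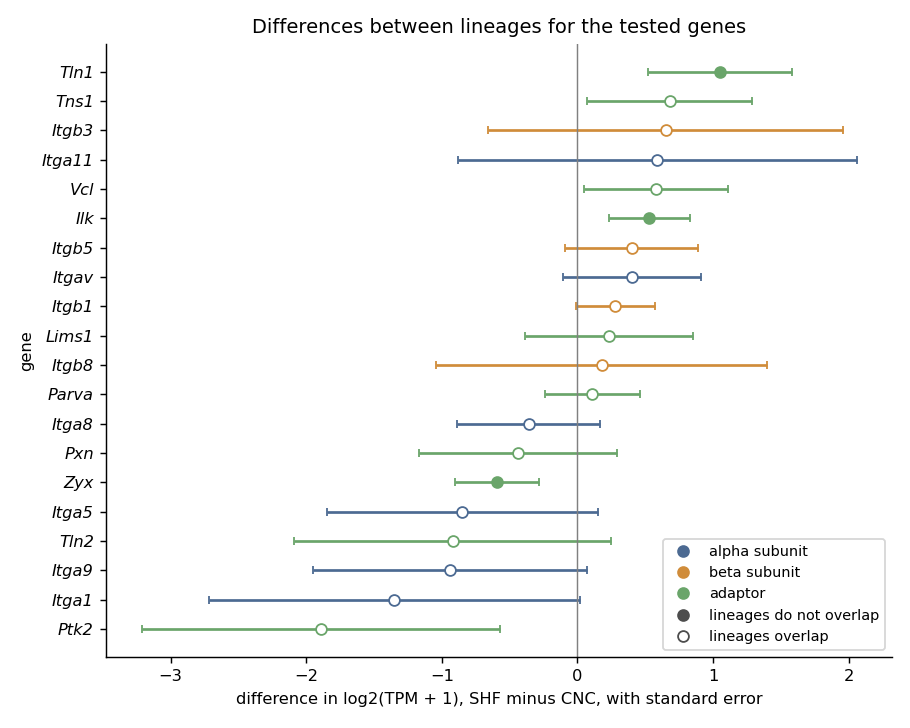
Difference in log2(TPM + 1), SHF minus CNC, with its standard error from the limma fit, for the 20 tested genes ordered by size and colored by role; filled points mark genes whose lineages do not overlap. The values run from -1.89 for *Ptk2* to 1.05 for *Tln1*, and no gene passed the threshold.

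All 35 genes together came to 1765, 1901 and 1857 TPM in SHF and 1668, 1757 and 1745 TPM in CNC replicates. Every SHF sum was above every CNC sum, by a small margin at the nearest libraries. The 10 adaptors exceeded the 25 integrin subunits in every library, and the log2 of that ratio was 0.60 ± 0.12 in SHF and 0.60 ± 0.23 in CNC libraries (SD, n = 3, exact permutation p = 0.9).

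Other genes of the adhesion machinery were read from the same fit. Of 50 other focal adhesion genes, 43 were tested, 0 passed the threshold in either direction, and 1 had an unadjusted p under 0.05, against 5.86% of all genes tested. Their median difference was 0.21. That 1 gene was *Lims2*, which encodes PINCH2, at 29.1, 0 and 23.01 TPM in SHF and 157.68, 122.65 and 20.61 TPM in CNC replicates (log2 difference -3.07 ± 1.32, limma, adjusted p = 0.82), so that CNC replicate 3 lay within the SHF range. The most abundant were *Cav1* of caveolae at 234 TPM, *Rsu1*, a partner of PINCH, at 197 TPM and *Csrp1*, a LIM protein of actin bundles, at 183 TPM, as means over 6 libraries.

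For *Fblim1*, *Kank1* and *Lpp* every SHF library was above every CNC library, which held for 6.11% of all genes tested. The reverse held for 0 genes of this list and for 5.68% of all genes tested. *Kank1*, whose product binds talin and sits at the rim of adhesions, was at 84.69, 90.45 and 62.76 TPM in SHF and 33.42, 48.43 and 33.26 TPM in CNC replicates. The difference of 1.03 ± 0.53 (limma, adjusted p = 0.874) was close in size to that of *Tln1*. By the rule for named genes, *Sorbs2* (2.67 ± 1.25) and *Vasp* (2.15 ± 1.32) also lay toward SHF and *Flnc* (-2.22 ± 1.41) and *Nck1* (-0.98 ± 0.80) toward CNC, all as log2 differences with SE and short of the threshold. *Fermt2*, the kindlin of stromal cells, was at 68.79 to 146.25 TPM over the libraries, and *Fermt3*, that of blood cells, was above 0 only in SHF replicate 2, at 44.51 TPM.

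Among 33 genes of integrin ligands and co-receptors, 30 were tested and 0 passed the threshold in either direction. An unadjusted p under 0.05 was found for 5 of them, 3 higher in SHF and 2 higher in CNC libraries, against 2.69% and 3.17% of all genes tested. In 10 of the 30 the lineages did not overlap, 6 with SHF and 4 with CNC higher, against 6.11% and 5.68% of all genes tested. *Thbs1*, a matricellular ligand of several integrins, was at 504.29, 544.75 and 98.67 TPM in SHF and 66.02, 76.31 and 49.45 TPM in CNC replicates (2.24 ± 0.61, limma, adjusted p = 0.548). *Vcam1*, the ligand of alpha4 integrins, was at 389.28, 164.51 and 51.41 TPM and at 47.59, 44.43 and 46.18 TPM, and *Sdc4*, a fibronectin co-receptor at focal adhesions, at 447.19, 588.4 and 532.47 TPM and at 342.13, 357.09 and 288.87 TPM in the same order.

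Toward CNC lay *Col1a1*, the main fibrillar collagen chain and ligand of *Itga11* and *Itga1* products, at 4541.34, 4004.56 and 4396.34 TPM in SHF and 11791.92, 7322.3 and 12778.1 TPM in CNC replicates (-1.26 ± 0.24, limma, adjusted p = 0.465). *Col1a1* is also 1 of the 10 fibroblast genes summed above. *Ltbp1*, which presents latent TGF-β to alpha v integrins, was at 77.64, 95.52 and 55.79 TPM in SHF and 226.9, 102.12 and 168.73 TPM in CNC replicates (-1.07 ± 0.46, limma, adjusted p = 0.82), and *Adam15* followed at -0.98 ± 0.53. The tetraspanins *Cd81* and *Cd9*, which associate with integrins in the membrane, were the most abundant of the list after *Col1a1*, at 2363 and 1668 TPM on average, with differences of 0.03 ± 0.25 and 0.28 ± 0.25.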

How the data were processed

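Bulk RNA was sequenced from 6 sorts of GFP+ aortic cells, 3 SHF and 3 CNC. RNA was normalized by cell number and amplified by SmartSeq2, which marks no strand, and libraries were made with Nextera XT. The deposited values are TPM, 1 column per library, which the authors obtained with RSEM 1.2.25 and bowtie2 on mm10, per the labels and methods, and columns were matched through library codes. The gene annotation is not given in the sources used here.

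A limma model (version 3.58.1, R 4.3.3) with a mean-variance trend was fitted to log2(TPM + 1). It covered the 10185 genes that reached 1 TPM in 3 or more libraries. The coefficient is SHF minus CNC, p-values were adjusted by Benjamini-Hochberg over all these genes, and the threshold was 0.05. Differences on this scale understate the change of low genes. Shares and ratios were compared by exact two-sided permutation tests. Labels do not say which libraries came from separate mice, while the study describes biological replicates.

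The members and lists were chosen with earlier results of these data known. Named genes are all members and, of the other 2 adhesion lists, the 3 most abundant and the 3 with the smallest p per direction. *Fblim1*, *Lpp*, *Fermt2*, *Fermt3*, *Fn1*, *Creb3*, *Taf10*, *Rrp8*, *Ap3m1* and *Epha1* were named after their values were seen. Not every gene of these lists is reported here. Marker lists of smooth muscle, fibroblast, endothelial, leukocyte, platelet, Schwann cell, cardiomyocyte, mesothelial and sex-linked genes were summed or given by value.

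Replicate numbers are shared by the lineages. The deviations of same-numbered libraries from their lineage means correlated at -0.011, -0.004 and -0.011, so the numbers did not pair them. Gene positions (GRCm38, which mm10 denotes) were taken by symbol from GENCODE M21 for all 35 members, and sequences are from RefSeq on GRCm38.p6. Python 3.11.15, pandas 2.3.3, scipy 1.17.1 and matplotlib 3.10.9 were used. The single-cell data of the study were not analysed here.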

Additional observations from a re-analysis of the deposited data

How the results depend on the processing

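Under the alternatives tried (pseudocounts of 0.1 and 5, no filter, a filter at 5 TPM, median-of-ratios rescaling, quantile normalization, no trend, library weights, a replicate block and each library left out), 0 members, 0 other focal adhesion genes and 0 ligand genes passed the threshold, and the smallest adjusted p of a member was 0.643. Over all genes the count of 0 became 1 with a pseudocount of 5. It also became 1 with only the 4 libraries that hold Y-linked transcripts, an alternative chosen after seeing the data in which the median of all genes moved to 0.21. Without the filter 1 member, *Tln1*, had an unadjusted p under 0.05, against 574 of all 14179 genes in that fit. With the replicate block, whose numbers did not pair the libraries, 549 genes had an unadjusted p under 0.05 against 597 without it, and 0 were called.

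Leaving out each library in turn, from 4 to 8 members had lineages that did not overlap, since each omission removes a requirement. The share over all genes under the same omissions is not given here, so this count cannot be read as a result about the members. The differences in shares ran from -7.5 to 0.0969 percentage points for collagen receptors, from -5.33 to 0.559 for *Itga4* with *Itga9*, from -0.282 to 0.0988 for leukocyte alpha subunits, from 3.06 to 12.9 for RGD receptors, from -3.54 to -0.599 for laminin receptors, from -3.79 to 3.3 for *Itgb1* and from -1.74 to 4.99 for *Itgb5*, the log2 ratio of beta1 partners to *Itgb1* from -0.73 to -0.20 and that of adaptors to integrins from -0.10 to 0.13. The last was -0.18 without *Ilk*, the adaptor with the highest mean, and that of the *Itgb1* share -1.11 without *Itgb2* and *Itgb7*, and that of the beta1 partners was -0.83 without *Itgav*. Of 299 values of single members, 289 kept their direction. The log2 difference ran from -2.12 to 0.04 for *Itga1*, from -1.22 to 1.84 for *Itga11*, from -0.68 to 0.03 for *Itga8*, from -0.28 to 0.71 for *Itgb8*, from -0.83 to 0.17 for *Pxn*, from -0.07 to 0.25 for *Parva* and from -0.01 to 0.59 for *Lims1*, which was -0.08 with library weights. The cause was not tested. Unknown depth, 3 libraries a lineage and values listed at 0 limit these results.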
